A study of Homo sapiens with 6 samples.

Results

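NCI-H1650Re cells were compared with NCI-H1650 cells for 10 genes of the WNT pathway. They were the ligand WNT5A, the receptors FZD6, LRP5 and LRP6, the secreted inhibitor DKK1 and the destruction complex genes AXIN1, AXIN2 and APC. The others were beta-catenin itself (CTNNB1) and TCF7L2, one of its DNA-binding partners. The genes were taken from the table of all genes by symbol, with earlier results of these data known, and 8 of the 10 had a row among 12659 genes. AXIN2 and APC were not analysed here. NCI-H1650 is an established human lung adenocarcinoma line with an activating EGFR deletion. NCI-H1650Re carries the same cell line label, with the time point post-SCLC, and NCI-H1650 has the time point pre-LUAD, where LUAD and SCLC are the usual short forms of lung adenocarcinoma and small cell lung cancer. The labels name no agent or clone that sets NCI-H1650Re apart. Polyadenylated RNA was sequenced in 3 libraries per line, 6 in all, and the comparison asks how transcript levels differ between them.

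WNT proteins are secreted lipid-modified ligands that bind a Frizzled receptor together with the co-receptor LRP5 or LRP6. Without a signal, the scaffold proteins AXIN and APC hold beta-catenin for phosphorylation and destruction. With one, beta-catenin escapes, enters the nucleus and switches on target genes through TCF and LEF proteins. WNT5A is the best known ligand of the branch that works without beta-catenin, through receptors such as ROR1, ROR2 and RYK and the planar cell polarity proteins, and it can restrain the beta-catenin branch.

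Depth estimated from deposited counts and FPKM (fragments per kilobase of transcript, scaled to each library's depth) was about 18100000 to 21600000 fragments in NCI-H1650Re and 17000000 to 22300000 fragments in NCI-H1650. All 6 epithelial markers examined, EPCAM, CDH1, KRT8, KRT18, KRT19 and KRT7, had values, with a summed level of 3017 to 3041 FPKM in NCI-H1650Re and 3456 to 4575 FPKM in NCI-H1650. Of 8 markers of small cell lung cancer 3 had a row, CHGA, SYP and DLL3, and their summed level was 7.48 to 11.2 FPKM in NCI-H1650Re and 4.47 to 5.59 FPKM in NCI-H1650. The rest of that list was not analysed here, nor were 5 of 6 lung adenocarcinoma markers, so the labels could be checked against few defining genes. CHGA and COL3A1, a fibroblast marker, rose. SYP (log2 change 0.25, limma adjusted p = 0.124) and DLL3 (0.29, adjusted p = 0.0833) did not pass. Of the 6 epithelial markers EPCAM, CDH1, KRT8 and KRT19 fell, while KRT7 (log2 change 0.35, limma adjusted p = 0.0563, higher in every NCI-H1650Re library than in any NCI-H1650 library) and KRT18 (0.13, adjusted p = 0.501) did not pass and had positive differences. CD14 was the only one of 4 leukocyte markers with a row (0.13 to 0.29 FPKM in NCI-H1650Re and 1.09 to 1.86 FPKM in NCI-H1650), and none of 4 endothelial markers had one. The part of other cells in the results was not tested. Replicate 3 of each line stood apart from the other libraries of that line in earlier results of these data, and the counts over the 8 genes are also given without both. Nothing in the labels ties replicates to separate cultures, and p-values therefore reflect only how far these libraries vary, possibly for technical reasons. As these are bulk cultures, fewer cells expressing a gene and less RNA per cell cannot be told apart.

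WNT5A and AXIN1 rose in NCI-H1650Re, LRP5 and CTNNB1 fell, and FZD6, LRP6, DKK1 and TCF7L2 did not pass the test. All 8 genes reached the mean of 1 FPKM in either line that was required for testing. The test was limma on log2(FPKM + 1) with Benjamini-Hochberg adjustment over 11764 genes at 0.05, coded NCI-H1650Re minus NCI-H1650. On that scale changes of low genes are understated. With 4 of 8 genes called, the share stands beside 30.5% of all tested genes, and the 2 rises and 2 falls stand beside 16.6% of genes higher and 13.9% lower. The lines did not overlap for 5 of the 8, against 47.2% of all tested genes, with 3 of them higher (26.3% of all genes) and 2 lower (21.0%). The median absolute log2 change was 0.38 over the 8 genes and 0.19 over all tested genes. Without both replicate 3 libraries 4 genes rose and 2 fell, where 43.2% of all genes were called.

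**Figure D1:**
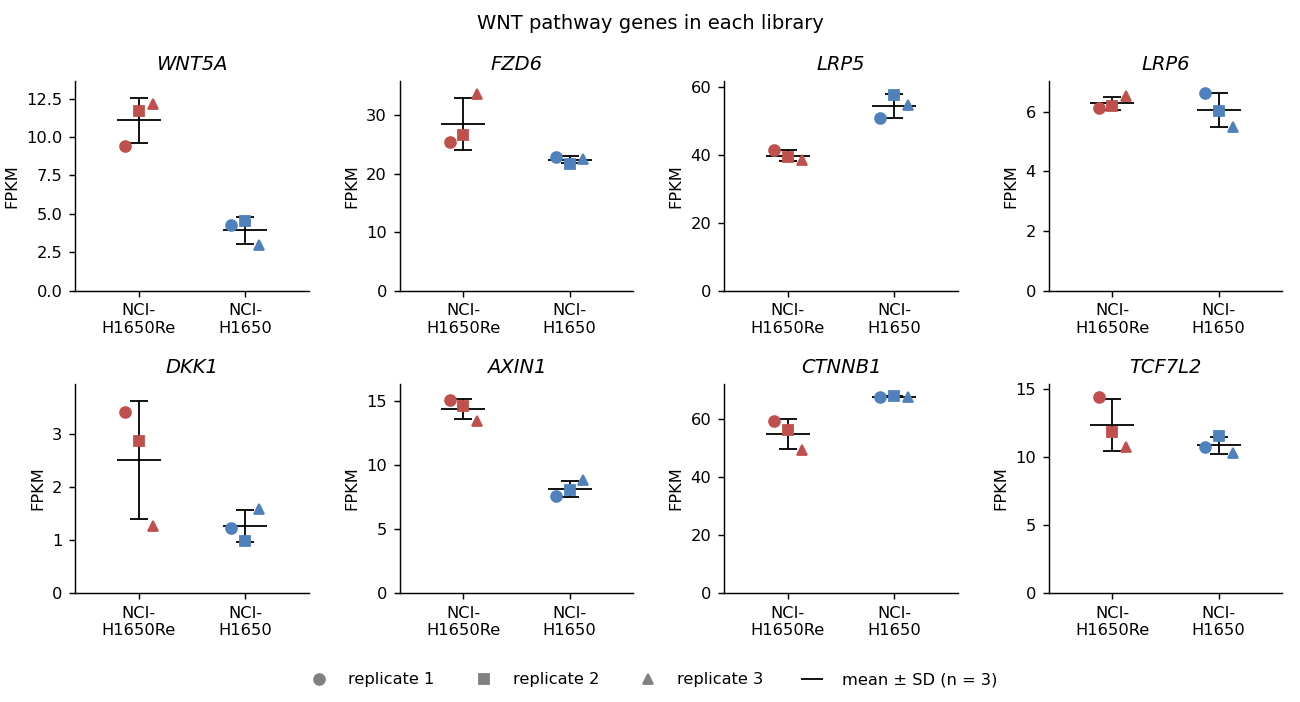
Each panel shows one gene's level in FPKM on an axis from 0, NCI-H1650Re left and NCI-H1650 right, with one symbol per library and the mean ± SD (n = 3). WNT5A and AXIN1 lie wholly above the NCI-H1650 libraries, LRP5 and CTNNB1 wholly below, and DKK1 in NCI-H1650Re replicate 3, at 1.27 FPKM, lies within the NCI-H1650 range.

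The ligand WNT5A was at 9.44, 11.67 and 12.13 FPKM in NCI-H1650Re, against 4.28, 4.53 and 2.94 FPKM in NCI-H1650. Every NCI-H1650Re library was above any NCI-H1650 library, and the lowest value was that of NCI-H1650 replicate 3. The mean was 11.1 ± 1.44 FPKM in NCI-H1650Re and 3.92 ± 0.855 FPKM in NCI-H1650 (SD, n = 3 each), a ratio of means of 2.83. The log2 change was 1.31 (SE 0.15, 95% interval 0.96 to 1.65, limma adjusted p = 0.00111), and 98.7% of tested genes had a smaller absolute change. Deposited fragment counts were 1185, 1555 and 1355 in NCI-H1650Re and 590, 542 and 309 in NCI-H1650, so the difference does not rest on few reads. WNT5A was the only one of the 8 genes that the authors' deposited table marked as regulated, with a log2 fold change of 1.47, where 6.79% of all its genes are marked. The gene lies at chromosome 3, 55465715 to 55490539, on the minus strand (GENCODE 29, GRCh38), and overlaps the antisense gene WNT5A-AS1, which has no row. Whether counting used strand is not given, so reads of the pair cannot be told apart. Reads cannot be told apart either for CTNNB1 and ULK4, which has a row. The same holds for LRP6 with BCL2L14, TCF7L2 with AL158212.2, FZD6 with BAALC-AS1 and DKK1 with PRKG1-AS1, partners without a row. TCF7L2 also overlaps the pseudogene RPS15AP30, without a row, on the same strand. Fibroblasts also make WNT5A. Of 6 fibroblast markers 2 had a row, COL1A1 and COL3A1, with a summed level of 23.0 to 40.1 FPKM in NCI-H1650Re and 10.1 to 12.96 FPKM in NCI-H1650. COL3A1, which made up most of that sum in every library, rose and COL1A1 did not pass. COL1A2, LUM, DCN and PDGFRB were not analysed here. Whether fibroblasts or other cells had any part in the WNT5A difference was not tested.

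Among receptors, LRP5, a co-receptor for WNT ligands, was at 41.58, 39.34 and 38.59 FPKM in NCI-H1650Re, against 50.86, 57.71 and 54.93 FPKM in NCI-H1650. The lines did not overlap. Its log2 change was -0.44 (SE 0.07, 95% interval -0.61 to -0.28, limma adjusted p = 0.00416). The paralogue LRP6, also a WNT co-receptor, is encoded on chromosome 12. LRP6 was at 6.11, 6.18 and 6.53 FPKM in NCI-H1650Re and 6.63, 6.02 and 5.49 FPKM in NCI-H1650. These ranges overlap. LRP6 differed by 0.05 on the log2 scale (95% interval -0.14 to 0.24, limma adjusted p = 0.684), and its sign turned without NCI-H1650 replicate 3, at -0.01. LRP5 was 5.91 to 6.81 times the level of LRP6 in NCI-H1650Re and 7.67 to 10.01 times in NCI-H1650, per kilobase of transcript. The log2 ratio of LRP6 to LRP5 averaged -2.67 ± 0.10 in NCI-H1650Re and -3.17 ± 0.21 in NCI-H1650, a difference of 0.51 (exact two-sided permutation p = 0.1, the smallest that 3 against 3 libraries allow).

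The Frizzled receptor gene FZD6, on chromosome 8, was at 25.35, 26.58 and 33.5 FPKM in NCI-H1650Re, against 22.8, 21.7 and 22.54 FPKM in NCI-H1650. All NCI-H1650Re libraries were higher, and replicate 3 was the highest of them. Its log2 change of 0.33 (SE 0.11, 95% interval 0.08 to 0.57) missed the threshold narrowly, with a limma adjusted p of 0.0501. It passed when NCI-H1650Re lost replicate 3 (0.0479) or replicate 1 (0.0317), and over single left-out libraries the limma adjusted p ran from 0.0317 to 0.154. FZD6 protein is a receptor often linked to the branch that does not use beta-catenin.

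DKK1 encodes a secreted protein that binds LRP5 and LRP6 and blocks them, and the gene is itself a beta-catenin target. It was the lowest of the 8 genes in both lines, at 3.41, 2.87 and 1.27 FPKM in NCI-H1650Re and 1.23, 0.98 and 1.58 FPKM in NCI-H1650. Replicates 1 and 2 of NCI-H1650Re were above all NCI-H1650 libraries, while replicate 3 was within their range. The log2 change was 0.59 (SE 0.24, 95% interval 0.03 to 1.15, limma adjusted p = 0.1003). Without NCI-H1650Re replicate 3 it was 0.88 and passed (limma adjusted p = 0.00269), and over the other settings the adjusted p ran from 0.000746 to 0.268. An estimated 34 to 124 fragments per library stand behind these values, fewer than for any other of the 8 genes.

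AXIN1, the scaffold of the destruction complex, was at 15.08, 14.6 and 13.49 FPKM in NCI-H1650Re, against 7.59, 8.07 and 8.82 FPKM in NCI-H1650. The lines were far apart relative to their spread, and no library overlapped. The mean was 14.4 ± 0.816 FPKM in NCI-H1650Re and 8.16 ± 0.620 FPKM in NCI-H1650, a ratio of 1.76. The log2 change was 0.75 (SE 0.08, 95% interval 0.56 to 0.93, limma adjusted p = 0.000905), larger in absolute size than in 93.5% of tested genes. The authors' deposited table gives AXIN1 a log2 fold change of 0.791 with an FDR of 2.69e-09 but does not mark it, and the marked genes all had an absolute log2 fold change above 1. The gene lies at chromosome 16, 287440 to 352673, on the minus strand (GRCh38).

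CTNNB1, which encodes beta-catenin, was the highest of the 8 genes in both lines. It was at 59.36, 56.3 and 49.39 FPKM in NCI-H1650Re, against 67.77, 67.88 and 67.55 FPKM in NCI-H1650. The NCI-H1650 libraries differed by less than 1 FPKM, and every NCI-H1650Re library was below them. The log2 change was -0.30 (SE 0.08, 95% interval -0.48 to -0.12, limma adjusted p = 0.0257), the smallest of the 4 changes called. That call ended when NCI-H1650 replicate 1, 2 or 3 or NCI-H1650Re replicate 2 was left out (limma adjusted p = 0.0726, 0.0933, 0.0541 and 0.0742), with values of -0.30, -0.30, -0.30 and -0.32. TCF7L2 is one of the TCF and LEF transcription factors that bring beta-catenin to DNA. It was at 14.45, 11.88 and 10.73 FPKM in NCI-H1650Re and 10.75, 11.56 and 10.27 FPKM in NCI-H1650. The lines overlap, and TCF7L2 differed by 0.16 on the log2 scale (95% interval -0.09 to 0.42, limma adjusted p = 0.286).

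**Figure D2:**
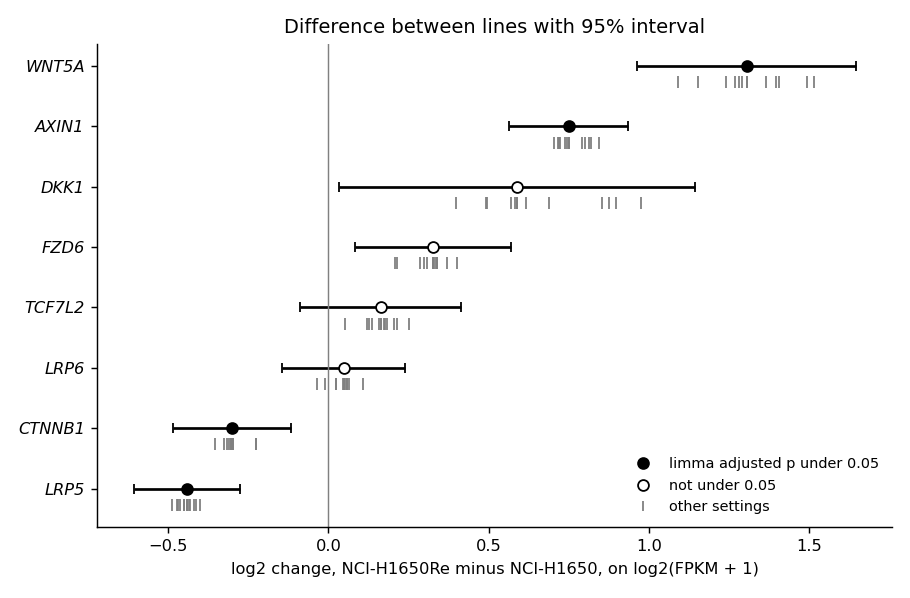
The log2 change of each gene, NCI-H1650Re minus NCI-H1650, is drawn with its 95% interval, filled where the limma adjusted p was under 0.05, with grey ticks for the other settings tried. WNT5A (1.31) and AXIN1 (0.75) stay right of 0 and LRP5 (-0.44) and CTNNB1 (-0.30) left of it in every setting, while ticks of LRP6 fall on both sides.

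By the exact two-sided permutation test over libraries, WNT5A, AXIN1, LRP5, CTNNB1 and FZD6 each gave p = 0.1, the smallest possible here, with DKK1 at 0.2, TCF7L2 at 0.3 and LRP6 at 0.6. The authors' deposited table puts 5 of the 8 genes under an FDR of 0.05, where 27.9% of all its genes are. These were WNT5A, AXIN1, LRP5, CTNNB1 and, unlike in limma, DKK1 (FDR = 0.0328). By level, CTNNB1, LRP5 and FZD6 led in both lines. In NCI-H1650Re AXIN1, TCF7L2 and WNT5A followed, with overlapping libraries between AXIN1 and TCF7L2 and between TCF7L2 and WNT5A, and then LRP6 and DKK1. In NCI-H1650 the order after FZD6 was TCF7L2, AXIN1, LRP6, WNT5A and DKK1, with no overlap between neighbours. WNT5A thus stood above LRP6 in NCI-H1650Re and below it in NCI-H1650, in terms of FPKM.

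Promoter sequences are shown for the genes with the clearest rises and fall, WNT5A, AXIN1 and LRP5, and for DKK1, whose known control by TCF proteins makes the motif of interest. They come from RefSeq (GRCh38.p14), which held 6 of the 8 genes, and run 5′ to 3′ on the gene's strand from 250 bases before to 50 after the RefSeq start. For WNT5A that start lies 3233 bases inside the GENCODE gene given above, downstream of its outermost start, so the window is an internal start of that gene model. For AXIN1, LRP5 and DKK1 it lies 50, 18 and 15 bases upstream of the GENCODE start. The windows are chr3:55487257-55487556 (minus strand) for WNT5A, chr16:352674-352973 (minus) for AXIN1, chr11:68312341-68312640 (plus) for LRP5 and chr10:52314031-52314330 (plus) for DKK1. Capitals mark CTTTGA, one form of the TCF and LEF core, on either strand. They also mark the GC box in the exact form CCCCGCCCC, on either strand, a form of the letters bound by SP-family factors. Other forms of the TCF and LEF core, such as CTTTGT, were not searched for. Nor were shorter forms of the GC box, such as GGGCGG.
WNT5A: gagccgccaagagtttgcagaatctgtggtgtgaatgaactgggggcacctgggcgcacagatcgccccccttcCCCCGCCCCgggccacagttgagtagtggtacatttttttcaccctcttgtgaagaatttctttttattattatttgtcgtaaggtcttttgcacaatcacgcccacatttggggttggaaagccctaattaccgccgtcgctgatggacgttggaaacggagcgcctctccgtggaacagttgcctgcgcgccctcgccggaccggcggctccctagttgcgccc
AXIN1: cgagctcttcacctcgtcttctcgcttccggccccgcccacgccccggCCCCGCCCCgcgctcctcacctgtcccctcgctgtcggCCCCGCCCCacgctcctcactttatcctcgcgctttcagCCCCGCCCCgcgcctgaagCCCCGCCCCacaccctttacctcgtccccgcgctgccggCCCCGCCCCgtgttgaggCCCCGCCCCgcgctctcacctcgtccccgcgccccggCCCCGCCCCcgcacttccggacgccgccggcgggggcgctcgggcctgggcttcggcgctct
LRP5: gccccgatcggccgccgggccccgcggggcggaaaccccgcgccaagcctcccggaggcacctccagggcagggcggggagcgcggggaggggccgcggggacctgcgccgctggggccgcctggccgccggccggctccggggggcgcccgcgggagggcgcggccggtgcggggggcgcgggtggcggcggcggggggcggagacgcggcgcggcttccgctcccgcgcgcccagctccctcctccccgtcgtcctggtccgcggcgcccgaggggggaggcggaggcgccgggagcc
DKK1: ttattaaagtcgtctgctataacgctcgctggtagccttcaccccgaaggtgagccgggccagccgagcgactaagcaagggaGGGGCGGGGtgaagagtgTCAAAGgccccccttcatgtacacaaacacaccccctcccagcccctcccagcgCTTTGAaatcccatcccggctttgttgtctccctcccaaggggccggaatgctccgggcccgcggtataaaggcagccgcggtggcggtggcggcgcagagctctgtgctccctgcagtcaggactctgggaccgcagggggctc
DKK1 was the only one of the 6 promoters with CTTTGA, with matches that start at -149 and -95 from the RefSeq start. The motif is in 12.9% of 35116 RefSeq promoters of this length, and 1.29% hold at least 2. AXIN1 had 7 GC boxes of the exact form CCCCGCCCC, a number that 0.0427% of promoters reach. WNT5A had 1, DKK1 had 1 and LRP5 had none of that form, though the LRP5 window holds the shorter GGGCGG. The CG dinucleotide count was 21 in WNT5A, 44 in AXIN1, 52 in LRP5 and 20 in DKK1, where the median promoter had 14. A match describes letters in this window and is not a bound site.

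Neighbouring genes were compared to show whether a change was shared along the chromosome. All 24 tested neighbours of WNT5A, 12 on each side, had lower log2 changes than WNT5A, with a median of -0.03. The same held for the 19 tested neighbours of AXIN1 near the tip of chromosome 16, whose median was -0.09 and of which 2 rose and 6 fell. Among all tested genes, 98.7% had a smaller absolute change than WNT5A and 93.5% than AXIN1. Their rank above the neighbours therefore cannot by itself show whether a change was shared. LRP5 fell while 10 of its 24 neighbours rose and 1 fell (median log2 change 0.23). These counts of neighbours stand beside 16.6% of all tested genes that rose and 13.9% that fell. Of the 24 neighbours of DKK1 on chromosome 10, 16 fell and 1 rose, with a median log2 change of -0.46, whereas DKK1 itself was at 0.59. For CTNNB1, 23 of 24 neighbours were above it and their median was 0.08. The medians around FZD6, TCF7L2 and LRP6 were 0.07, -0.03 and 0.07.

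**Figure D3:**
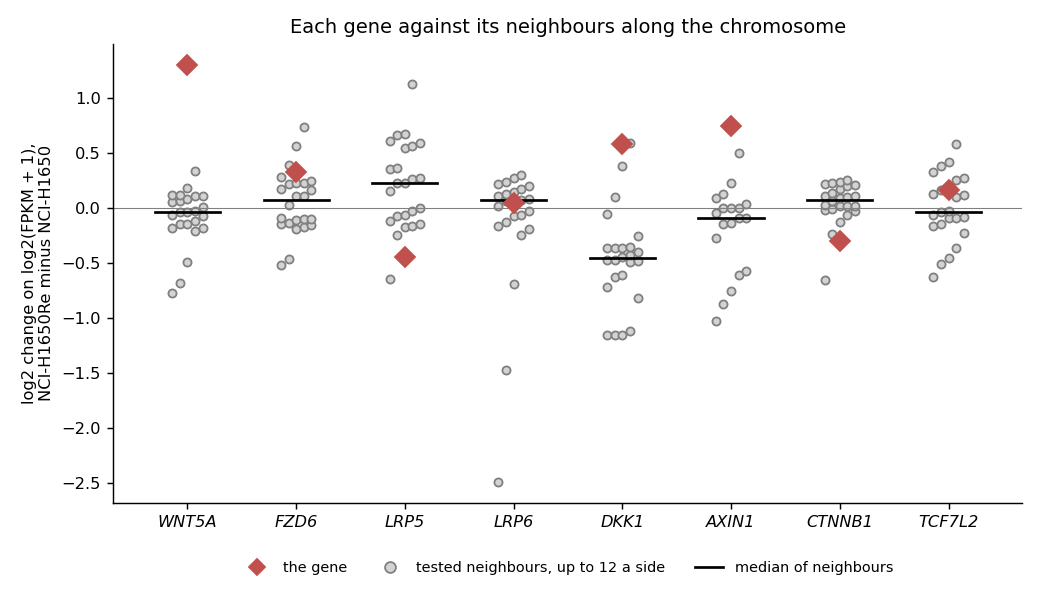
Log2 change, NCI-H1650Re minus NCI-H1650, of each gene (diamond), its tested neighbours along the chromosome (grey points) and their median (line). WNT5A and AXIN1 lie above all their neighbours, and the neighbours of DKK1 centre on -0.46 while DKK1 is at 0.59.

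The rest of the pathway was described from lists by role, with 84 genes tested of 123 listed, the 8 genes above included. Of these 16 rose and 20 fell, 42.9% in all, against 30.5% of all tested genes, and the median log2 change was -0.03, against 0.03 over all genes. Without the 8 genes, 14 rose and 18 fell of 76. When NCI-H1650Re replicate 2 was left out 21 genes passed (25.0%), and 20 did (23.8%) when NCI-H1650 replicate 2 was, while the share over all genes also fell, to 16.1% and 15.2%. Without NCI-H1650 replicate 1 that share was 20.3%, and the counts given below for single left-out libraries stand against these shares.

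Among ligands and secretion genes, 4 of 10 tested rose and none fell, where 16.6% of all tested genes rose and 13.9% fell, and 1 of the 4, WNT5B, was lost in most other settings. WLS, the carrier that brings WNT ligands to the cell surface, rose to 31.06, 34.37 and 29.02 FPKM in NCI-H1650Re, against 17.24, 18.57 and 18.88 FPKM in NCI-H1650 (log2 change 0.75, limma adjusted p = 0.000952). WNT7B, a ligand made by lung epithelium, rose to 33.33, 31.66 and 31.60 FPKM in NCI-H1650Re, against 20.57, 22.37 and 25.33 FPKM in NCI-H1650 (log2 change 0.49, limma adjusted p = 0.00544). Neither gene overlapped between lines. WNT7B had the highest FPKM of the 11 WNT ligands with a row in both lines, above WNT5A. WNT5B, the paralogue of WNT5A, averaged 4.27 ± 1.29 FPKM in NCI-H1650Re and 2.50 ± 0.425 FPKM in NCI-H1650 (log2 change 0.57, limma adjusted p = 0.0494). That call ended in 8 of 14 other settings, among them leaving out NCI-H1650 replicate 2 (adjusted p = 0.159) and median-of-ratios scaling (0.0627). PORCN, which adds the lipid to WNT proteins, was at 9.19 ± 0.360 FPKM in NCI-H1650Re and 9.53 ± 0.873 FPKM in NCI-H1650 (limma adjusted p = 0.703).

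Receptors and the genes that govern their turnover went both ways, with 3 rises and 6 falls among 21 tested, LRP5 among the falls. That was 42.9%, against 30.5% of all tested genes (16.6% higher and 13.9% lower). RSPO4, a secreted R-spondin that amplifies WNT signals, rose to 8.56, 8.15 and 6.59 FPKM in NCI-H1650Re, against 2.53, 2.86 and 3.46 FPKM in NCI-H1650 (log2 change 1.15, limma adjusted p = 0.000895). LGR4, an R-spondin receptor, fell to 8.19 ± 0.812 FPKM in NCI-H1650Re, against 13.3 ± 0.928 FPKM in NCI-H1650 (log2 change -0.64, limma adjusted p = 0.00243). The ligand was thus higher and one of its receptors lower in NCI-H1650Re. The list's 9 calls became 3 with NCI-H1650Re replicate 2 left out, 4 with NCI-H1650 replicate 1 and 3 with NCI-H1650 replicate 2. FZD9 rose to 2.87 ± 0.688 FPKM in NCI-H1650Re, against 1.63 ± 0.310 FPKM in NCI-H1650. The FZD9 call (limma adjusted p = 0.0276) ended when replicate 2 of NCI-H1650Re was left out (0.0894), or any of replicates 1 to 3 of NCI-H1650 (0.0907, 0.0584 and 0.0502).

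The known receptors of WNT5A went both ways. ROR1 fell to 4.76, 4.15 and 3.58 FPKM in NCI-H1650Re, against 5.91, 5.92 and 5.45 FPKM in NCI-H1650 (log2 change -0.39, limma adjusted p = 0.0209). ROR2 was at 10.3 ± 0.539 FPKM in NCI-H1650Re and 12.6 ± 1.10 FPKM in NCI-H1650 (-0.27, adjusted p = 0.0425), and the pseudokinase PTK7 at 40.59, 37.04 and 42.05 FPKM in NCI-H1650Re and 50.97, 53.03 and 46.01 FPKM in NCI-H1650 (-0.32, adjusted p = 0.0221). RYK rose to 24.3 ± 0.839 FPKM in NCI-H1650Re, against 20.3 ± 0.828 FPKM in NCI-H1650 (0.25, adjusted p = 0.0255). Each of these 4 calls ended for at least 3 choices of a single left-out library, NCI-H1650Re replicate 2 and NCI-H1650 replicates 1 and 2 among them, with limma adjusted p up to 0.0839 for ROR1, 0.164 for ROR2, 0.1001 for PTK7 and 0.0865 for RYK. Of 15 tested genes of planar cell polarity and the WNT5A branch, 3 rose and 6 fell. That was 60.0%, against 30.5% of all tested genes (16.6% higher and 13.9% lower). The cytoplasmic polarity protein PRICKLE2 fell to 1.07 ± 0.241 FPKM in NCI-H1650Re, against 2.76 ± 0.154 FPKM in NCI-H1650 (log2 change -0.86, limma adjusted p = 0.00169). The cadherin CELSR2 (log2 change -0.65) and the membrane protein VANGL2 (-0.58) also fell, with limma adjusted p of 0.0232 and 0.0148. Both calls ended with replicate 2 of NCI-H1650Re or of NCI-H1650 left out (adjusted p = 0.0733 and 0.0626 for CELSR2, 0.0509 and 0.0537 for VANGL2), and CELSR2 also missed without NCI-H1650Re replicate 1 (0.0606). The list's 9 calls became 2 with replicate 2 of either line left out, and 5 with replicate 1 of NCI-H1650 left out.

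**Figure D4:**
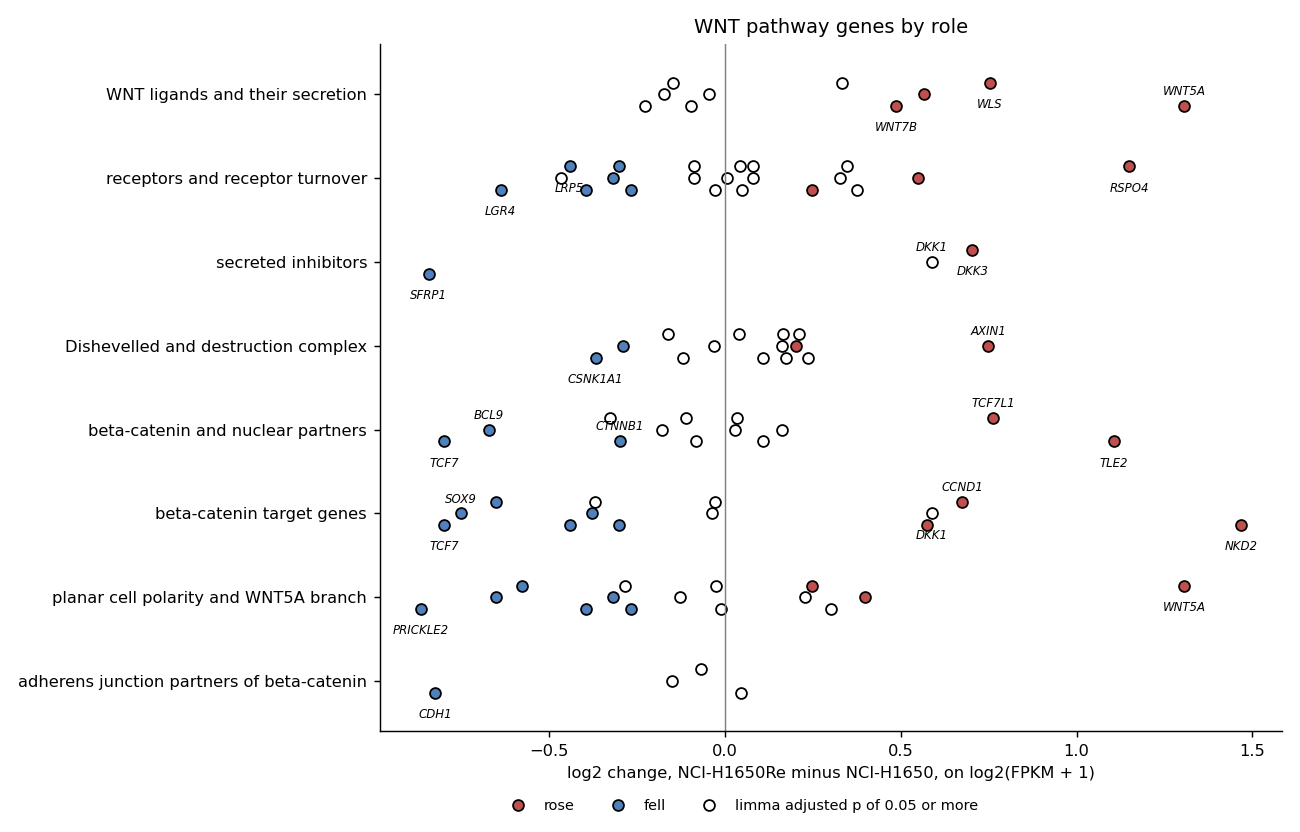
Each point is a tested gene of the WNT pathway, placed by its log2 change (NCI-H1650Re minus NCI-H1650) in a row for its role, red where it rose, blue where it fell and white where the limma adjusted p was 0.05 or more. All called genes of the ligand row lie right of 0, up to WNT5A at 1.31, while every other row but the last holds calls on both sides.

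Of 3 genes tested from the list of secreted inhibitors, DKK3 rose, SFRP1 fell and DKK1 did not pass. That was 66.7% called, against 30.5% of all tested genes (16.6% higher and 13.9% lower). DKK3 was at 6.74, 11.28 and 13.20 FPKM in NCI-H1650Re and 5.57, 5.73 and 6.06 FPKM in NCI-H1650 (log2 change 0.70, limma adjusted p = 0.0337). SFRP1, a decoy that binds WNT ligands, was at 0.89, 1.37 and 0.18 FPKM in NCI-H1650Re and 2.63, 2.38 and 1.48 FPKM in NCI-H1650 (-0.84, adjusted p = 0.0437). Both calls ended when single libraries were left out, with adjusted p up to 0.117 for DKK3 and 0.136 for SFRP1, and that of SFRP1 also at pseudocounts of 0.1 (0.0736) and 0.01 (0.0850), where its log2 change was larger in size, at -1.57 and -1.77.

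In the destruction complex and Dishevelled list, 2 of 14 tested rose and 2 fell, 28.6%, against 30.5% of all tested genes (16.6% higher and 13.9% lower). CSNK1A1, the kinase that primes beta-catenin, fell to 21.9 ± 0.289 FPKM in NCI-H1650Re, against 28.5 ± 1.62 FPKM in NCI-H1650 (log2 change -0.37, limma adjusted p = 0.00640). FBXW11, which marks phosphorylated beta-catenin for destruction, fell to 16.1 ± 0.418 FPKM in NCI-H1650Re, against 19.9 ± 0.996 FPKM in NCI-H1650 (-0.29, adjusted p = 0.0156). AXIN1 and these genes thus moved in opposite directions. The FBXW11 call ended with replicate 2 of NCI-H1650Re (0.0548) or replicate 1 (0.0564) or 2 (0.0569) of NCI-H1650 left out, and each of these left 2 calls in the list. The call of DVL3, which rose by 0.20 (adjusted p = 0.0386), ended in 11 of 15 other settings, up to 0.121. GSK3B, the main beta-catenin kinase, was at 12.3 ± 0.0361 FPKM in NCI-H1650Re and 11.3 ± 0.784 FPKM in NCI-H1650 (adjusted p = 0.279).

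Among beta-catenin and its nuclear partners, 2 of 13 tested genes rose and 3 fell, CTNNB1 among the falls. That was 38.5%, against 30.5% of all tested genes (16.6% higher and 13.9% lower). TLE2, a co-repressor that binds TCF proteins, rose to 34.26, 30.25 and 30.77 FPKM in NCI-H1650Re, against 12.58, 14.02 and 16.22 FPKM in NCI-H1650 (log2 change 1.11, limma adjusted p = 0.000493). TCF7L1, known mainly as a repressing TCF, rose to 52.59, 45.82 and 47.77 FPKM in NCI-H1650Re, against 26.91, 30.74 and 27.28 FPKM in NCI-H1650 (0.76, adjusted p = 0.000959). Neither overlapped between lines. TCF7, which is both a partner and a target, fell to 4.71, 5.08 and 2.90 FPKM in NCI-H1650Re, against 7.43, 8.39 and 7.99 FPKM in NCI-H1650 (-0.80, adjusted p = 0.00957). The co-activator BCL9 fell to 4.32 ± 0.624 FPKM in NCI-H1650Re, against 7.43 ± 0.341 FPKM in NCI-H1650 (-0.67, adjusted p = 0.00298). These 4 calls held in all 15 other settings.

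Of 13 tested beta-catenin target genes 3 rose and 6 fell, 69.2%, with a median log2 change of -0.30, against 30.5% of all tested genes (16.6% higher and 13.9% lower) and a median of 0.03. NKD2, a feedback inhibitor that binds Dishevelled, was at 3.01, 3.23 and 0.80 FPKM in NCI-H1650Re, against 0.08, 0.12 and 0.19 FPKM in NCI-H1650 (log2 change 1.47, limma adjusted p = 0.0103). Its deposited counts were 132, 150 and 31 in NCI-H1650Re and 4, 5 and 7 in NCI-H1650, so the NCI-H1650 level rests on few reads. The size of the NKD2 change depends on the pseudocount, with log2 changes of 3.22 at 0.1 and 3.91 at 0.01 (limma adjusted p = 0.00429 and 0.00399). The cyclin gene CCND1 rose to 58.5 ± 10.6 FPKM in NCI-H1650Re, against 36.3 ± 6.94 FPKM in NCI-H1650 (0.67, limma adjusted p = 0.0175). CCND1 is also among the 10 of 24 neighbours of LRP5 on chromosome 11 that rose. The CCND1 call ended with replicate 2 of NCI-H1650Re (0.0573) or replicate 1 (0.0632) or 2 (0.0704) of NCI-H1650 left out. MYC rose to 31.3 ± 2.17 FPKM in NCI-H1650Re, against 20.7 ± 2.47 FPKM in NCI-H1650 (0.57, limma adjusted p = 0.00481). Its libraries did not overlap between lines, and the call held in all 15 other settings. SOX9, a transcription factor of epithelial progenitors, fell to 13.20, 14.06 and 13.41 FPKM in NCI-H1650Re, against 21.43, 25.03 and 24.16 FPKM in NCI-H1650 (-0.75, adjusted p = 0.000810). The ubiquitin ligase RNF43, which removes Frizzled receptors and is a textbook target, fell to 6.05 ± 0.259 FPKM in NCI-H1650Re, against 7.68 ± 0.103 FPKM in NCI-H1650 (-0.30, limma adjusted p = 0.0137). RNF43 missed with replicate 2 of NCI-H1650Re (0.0635) or of NCI-H1650 (0.0670) left out. The other falls were TCF7, given above, EPHB3 (-0.65, limma adjusted p = 0.0066), EPHB2 (-0.44, 0.00996) and CD44 (-0.38, 0.00688). The calls of EPHB3, EPHB2 and CD44 held in all 15 other settings.

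At the cell surface beta-catenin also binds cadherins. CDH1, encoding E-cadherin, was at 120.01, 135.84 and 166.08 FPKM in NCI-H1650Re, against 253.63, 237.01 and 251.99 FPKM in NCI-H1650. It was the only one of 4 adherens junction genes to pass (log2 change -0.82, limma adjusted p = 0.00234). That was 25.0%, against 30.5% of all tested genes (16.6% higher and 13.9% lower). CTNNA1, which links beta-catenin to actin, was at 169 ± 9.39 FPKM in NCI-H1650Re and 177 ± 5.20 FPKM in NCI-H1650 (adjusted p = 0.475).

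Over the 6 libraries, the genes whose log2 levels were most like those of WNT5A by Pearson correlation were CCDC90B (r = 0.999), FEZ2 (0.998) and SIK1B (0.996). For CTNNB1 they were FAM69B (0.999), NECTIN1 (0.993) and TNC (0.992), and for DKK1 URB2 (0.997), TEX264 (0.997) and DNLZ (0.996). With 6 libraries in separate groups, 266, 163 and 142 genes exceeded r = 0.95 for WNT5A, CTNNB1 and DKK1, so these names are a description of the libraries.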

How the data were processed

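The authors deposited FPKM values for 12659 genes in each library, 750 of them without a name. Per the submitters' processing notes, HISAT2, Bowtie2, RSEM and DESeq2 were used, and the build mm10 is named although the identifiers are human. The human build and the filters are not given in the sources used here. Deposited counts cover 860 genes that the authors marked as regulated, WNT5A among them, so no count model was fitted. The log2 fold change and the FDR, an adjusted p-value, are also the authors' own, per the file headers.

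The 11764 genes that averaged 1 FPKM or more in one of the lines were fitted with limma 3.58.1 (R 4.3.3) on log2(FPKM + 1) with a variance trend and the line as the only term. P-values were adjusted by Benjamini-Hochberg over all tested genes. The fit was tested on simulated data. Depth was estimated from counts, FPKM and transcript lengths of 17 genes with a single transcript. Intervals and depth cover no error beyond the libraries. Positions came from GENCODE 29 (GRCh38). Genes were named by a rule: all genes examined, up to 4 called genes per role list with the largest change, any list gene whose role a sentence needs, and the 3 named genes most correlated with WNT5A, CTNNB1 or DKK1 (the rule also held AXIN2). MYC, EPHB3, EPHB2 and CD44, the remaining called target genes, were named as well. The genes, lists and the removal of replicate 3 were chosen with earlier results of these data known. Same-numbered libraries of the lines were not treated as pairs. Figures used matplotlib 3.10.9.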

Additional observations from a re-analysis of the deposited data

How the results depend on the processing

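The calls of WNT5A, AXIN1 and LRP5 held in all 15 other settings tried. Log2 changes over single left-out libraries ran from 1.15 to 1.41 for WNT5A, 0.70 to 0.80 for AXIN1, -0.49 to -0.40 for LRP5, -0.36 to -0.22 for CTNNB1, 0.40 to 0.88 for DKK1, 0.21 to 0.40 for FZD6, 0.05 to 0.25 for TCF7L2 and -0.01 (-0.0094, without NCI-H1650 replicate 3) to 0.11 for LRP6. FZD6 passed with a filter of 5 FPKM (0.33, limma adjusted p = 0.0454), and without both replicate 3 libraries (0.21, 0.0490). There DKK1 also passed (0.98, adjusted p = 0.000746) and LRP6 was at -0.035. DKK1 had no value under the filter of 5 FPKM. The cause of these shifts was not tested. All changed genes numbered 1785 to 4478 over left-out libraries, against 3587. Changed pathway genes numbered 20 to 40, against 36, with 3 to 11 receptors, 2 to 5 destruction complex genes, 2 to 10 polarity genes and 0 to 3 secreted inhibitors. The last was 1 of 3 at pseudocounts of 0.1 and 0.01, and 1 of 1 tested with the 5 FPKM filter. Secreted inhibitors at 0 in limma occurred without NCI-H1650 replicate 1 or 2, where 2 of 3 each had an unadjusted p under 0.05.

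With a replicate block 3522 genes changed, FZD6 passed at 0.33 (limma adjusted p = 0.0497), no other of the 8 genes changed its call, and ROR2 (0.0666), RYK (0.0510) and DVL3 (0.0615) missed the threshold. Deviations of same-numbered libraries correlated at 0.17, -0.04 and 0.21, and NCI-H1650Re replicate 1 was most like NCI-H1650 replicate 2 (0.23), so the numbers were not taken as pairs. The ratio of AXIN2 to AXIN1 could not be run. DKK1, with 34 to 124 fragments per library, is the gene most limited by depth.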

Other observations

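NCI-H1650Re replicate 3 was the lowest of its line for 9 of 13 beta-catenin target genes, among them DKK1 (1.27 FPKM), NKD2 (0.80), TCF7 (2.90) and NKD1 (0.37). The share, 69.2%, was close to that of the secreted inhibitors (66.7% of 3), the 8 WNT genes analysed (62.5%) and beta-catenin with its nuclear partners (61.5%), lists that share members with it. Over all tested genes it was the lowest for 44.6%, and over the planar cell polarity and WNT5A list for 3 of 15. WNT5A itself was highest in that library. This tally was chosen after the values were seen and was not tested.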
